A study of Mus musculus with 9 samples.

Results

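Transcripts of 10 genes of macrophages and related myeloid cells (C1qa, C1qb, C1qc, Csf1r, Cd68, Ctss, Fcgr4, Fcer1g, Tyrobp and Aif1) were followed in the kidney cortex of mice with Vhl deleted in the proximal tubule, with streptozotocin (STZ) diabetes, or with both. The genes were chosen by name, with earlier results of these data known, and each matched 1 of the 18657 gene rows. Counts of these genes set beside the share over all genes therefore describe the set and do not test it. RNA of whole renal cortex was sequenced as poly(A)-selected libraries from male mice on a C57BL/6/FVB mixed background, with RNA of 2 mice pooled in each library. The control group (con) carried Vhl fl/fl alleles without Cre, received citrate buffer alone and had 3 libraries from 6 mice. The VHLΔPT group carried Vhl fl/fl with SGLT2Cre, a transgene that drives Cre recombinase from the Slc5a2 promoter in the early proximal tubule, received buffer and had 2 libraries from 4 mice. The con/STZ group was Vhl fl/fl and the VHLΔPT/STZ group Vhl fl/fl with SGLT2Cre, and both received STZ at 100 mg/kg on each of 2 days, with 2 libraries from 4 mice each. Injections were given at 12 weeks of age and the mice were followed for 10 weeks, so all 4 groups shared the floxed Vhl alleles and the background. Cre is limited to a part of 1 tubule segment, while the RNA came from every cell of the cortex. The cells that made the transcripts described here cannot be told from such RNA.

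The C1q proteins are the recognition subunits of the classical complement pathway, and in tissues they are made mainly by macrophages. Csf1r is the receptor for colony-stimulating factor 1 and interleukin 34, on which most tissue macrophages depend. Activating Fc receptors such as the product of Fcgr4 bind antibody-coated targets and signal through the adaptor encoded by Fcer1g, and Tyrobp encodes the related adaptor DAP12, both of which carry an immunoreceptor tyrosine-based activation motif (ITAM). Cd68 and Ctss encode a lysosomal membrane glycoprotein and the protease cathepsin S, and Aif1 encodes the actin-binding protein IBA1. The kidney holds resident macrophages between its tubules, and several of these genes are also used by dendritic cells, neutrophils, natural killer cells or B cells, so they mark a myeloid compartment rather than a single cell type. In RNA of whole tissue, fewer cells of a type and less RNA per cell cannot be told apart.

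The values were quantile normalized gene counts, which give every library nearly the same total (21951722 to 21952234), so sequencing depth cannot be read from them and no counting interval is given. All 10 genes were above 0 in every library and passed the filter on low values (a mean over the 9 libraries of 10 or more), which left 14437 genes for testing. Tests were made with limma on log2(value + 1), and a gene is said to have passed at a Benjamini-Hochberg adjusted p under 0.05 over all genes tested. Fold changes are on that scale and slightly understate changes at low values. Whole-cortex Vhl was 522 to 555 in con and 434 and 470 in VHLΔPT (adjusted p = 0.145), and was 501 to 527 in both STZ groups. All mice were described as male, but the second con/STZ library had an Xist value of 3205, against 0 to 6.22 elsewhere. The third con library stood apart in its relation of values to gene length (r = -0.455, against -0.26 and -0.19 in the other con libraries), and the second VHLΔPT/STZ library lay at 33.5 on the first principal component, near con/STZ at 40.7 and 41.5 and away from its own partner at 4.14.

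The 3 C1q genes lie next to each other within 18675 bases of chromosome 4 (chr4:136880129-136898803, GRCm38, all on the minus strand), C1qb first, then C1qc, then C1qa. Fcgr4 (chr1:171018920-171029761, plus strand) and Fcer1g (chr1:171229572-171234365, minus strand) share a region of chromosome 1. Ctss lies at chr3:95526786-95556403 on the plus strand, Tyrobp at chr7:30413760-30417585 on the plus strand, Cd68 at chr11:69664213-69666153 on the minus strand and Aif1 at chr17:35170991-35176068 on the minus strand. Promoter sequences from the RefSeq table of GRCm38.p6 were used for 7 of the 10 genes. Csf1r was left out of the search by its chromosome, while the promoters used for comparison were not limited in this way. Because the values of these genes are correlated, their upstream sequences were searched for GAGGAA on both strands, a core sequence bound by PU.1, the myeloid transcription factor encoded by Spi1. The motif was chosen with the sequences in view, so its count in these genes cannot test an enrichment over other promoters. The Aif1 match, at -7 to -2, lay inside the annotated bounds of the gene. It was present in the 250 bases before the start of 6 of the 7 genes (C1qb, C1qc, Cd68, Ctss, Fcgr4 and Aif1, not Fcer1g), and 23.3% of 32851 promoters in the table held it in a window of the same length. The longer form GAGGAAGT, which contains the first, was present in 2 of the 7 (C1qc and Fcgr4) and in 2.44% of all promoters. Positions are counted back from the RefSeq start of the gene, and the matches lay at -30 to -25 in C1qb, -193 to -188 in C1qc, -22 to -17 in Fcgr4 and -164 to -159 in Ctss. A match of letters shows neither a bound site nor a cause.

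Upstream sequences of 5 genes are given 5′ to 3′ on the strand of the gene, ending at or before the annotated start of the gene, with GAGGAA or its reverse complement in capitals. They are the C1q pair C1qb (chr4:136886201-136886450, minus strand) and C1qc (chr4:136893066-136893164, minus strand), the Fc receptor Fcgr4 (chr1:171018676-171018919, plus strand), its adaptor Fcer1g as the gene without a match (chr1:171234366-171234599, minus strand), and Ctss (chr3:95526536-95526785, plus strand).
C1qb: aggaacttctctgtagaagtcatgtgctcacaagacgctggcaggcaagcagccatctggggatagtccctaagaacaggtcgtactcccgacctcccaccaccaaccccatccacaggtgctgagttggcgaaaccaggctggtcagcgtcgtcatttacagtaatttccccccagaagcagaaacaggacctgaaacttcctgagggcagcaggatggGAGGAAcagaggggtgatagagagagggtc
C1qc: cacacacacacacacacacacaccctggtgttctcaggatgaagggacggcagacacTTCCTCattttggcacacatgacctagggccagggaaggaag
Fcgr4: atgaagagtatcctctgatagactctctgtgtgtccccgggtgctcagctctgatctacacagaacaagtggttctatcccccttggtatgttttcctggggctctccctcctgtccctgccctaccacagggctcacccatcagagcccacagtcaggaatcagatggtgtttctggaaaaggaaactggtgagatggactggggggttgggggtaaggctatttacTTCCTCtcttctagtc
Fcer1g: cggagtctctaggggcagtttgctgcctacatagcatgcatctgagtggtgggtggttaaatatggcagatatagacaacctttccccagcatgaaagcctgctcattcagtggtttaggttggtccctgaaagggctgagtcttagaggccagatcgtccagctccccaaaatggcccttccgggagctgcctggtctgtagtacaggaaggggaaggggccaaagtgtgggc
Ctss: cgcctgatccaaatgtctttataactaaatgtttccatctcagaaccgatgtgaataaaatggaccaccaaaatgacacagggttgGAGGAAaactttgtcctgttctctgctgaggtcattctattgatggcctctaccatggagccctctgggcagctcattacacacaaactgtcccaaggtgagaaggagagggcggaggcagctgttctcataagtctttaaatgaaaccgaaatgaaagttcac

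Per kilobase of exon, the order of the 10 genes in con was C1qa (mean 644 normalized counts per kilobase), C1qb (505), Ctss (394), Csf1r (375), Tyrobp (329), C1qc (230), Fcer1g (164), Fcgr4 (93.2), Cd68 (78.6) and Aif1 (22.5). Each gene from C1qa down to C1qc overlapped its neighbour in this order across the 3 con libraries, as did Fcgr4 and Cd68. The steps from C1qc to Fcer1g, from Fcer1g to Fcgr4 and from Cd68 to Aif1 did not overlap.

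The complement genes were highest in con. C1qa had normalized counts of 559, 567 and 882 in con, 294 and 443 in VHLΔPT, 291 and 371 in con/STZ, and 377 and 365 in VHLΔPT/STZ. The third con library stood well above the other two, and all 6 libraries of the other groups were below all 3 of con. C1qb was 567, 454 and 625 in con, 276 and 446 in VHLΔPT, 266 and 291 in con/STZ, and 310.4 and 394 in VHLΔPT/STZ. The second VHLΔPT library came close to the lowest con library, whereas con/STZ and VHLΔPT/STZ were clearly lower. C1qc was 394, 390.2 and 547 in con, 230.4 and 331 in VHLΔPT, 253 and 262 in con/STZ, and 311 and 318 in VHLΔPT/STZ. The 3 subunit genes thus had the same ordering of con above all other libraries.

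Csf1r is the growth factor receptor of the set. The gene lies at chr18:61100598-61132149 on the plus strand and overlaps Hmgxb3 on the opposite strand. Csf1r was 2306, 2179 and 2015 in con, 2095 and 2138 in VHLΔPT, 1270.3 and 1518 in con/STZ, and 1883 and 1095 in VHLΔPT/STZ. The VHLΔPT libraries fell inside the con range, both con/STZ libraries were below it, and the 2 VHLΔPT/STZ libraries were far apart. Fcgr4 was 143, 91.9 and 116 in con, 52.7 and 50.1 in VHLΔPT, 52.4 and 62.2 in con/STZ, and 52.9 and 42.3 in VHLΔPT/STZ. All 6 libraries with deletion, STZ or both lay in a narrow band below con. Fcer1g was 128, 139 and 161 in con, 88.7 and 84.9 in VHLΔPT, 65.9 and 64.0 in con/STZ, and 69.3 and 84.1 in VHLΔPT/STZ. Its groups were tight, with con/STZ below VHLΔPT and VHLΔPT below con, without overlap. Tyrobp was 178, 164 and 317 in con, 144 and 156 in VHLΔPT, 92.2 and 98.7 in con/STZ, and 135 and 128 in VHLΔPT/STZ. The third con library was again the highest, and con/STZ was the lowest group.

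Ctss was 552, 473 and 580.2 in con, 343 and 474 in VHLΔPT, 279 and 281 in con/STZ, and 321 and 379 in VHLΔPT/STZ. The second VHLΔPT library matched the lowest con library, and the con/STZ pair agreed closely and lay below every other library. Cd68 was 86.9, 93.4 and 116 in con, 62.9 and 78.5 in VHLΔPT, 47.8 and 54.2 in con/STZ, and 41.6 and 64.0 in VHLΔPT/STZ. All libraries outside con were lower than those of con. Aif1 had the lowest values, with 26.1, 36.4 and 40.9 in con, 39.9 and 29.3 in VHLΔPT, 19.7 and 24.3 in con/STZ, and 17.8 and 22.7 in VHLΔPT/STZ. The VHLΔPT libraries lay within the con range and both STZ groups lay just below it.

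**Figure D1:**
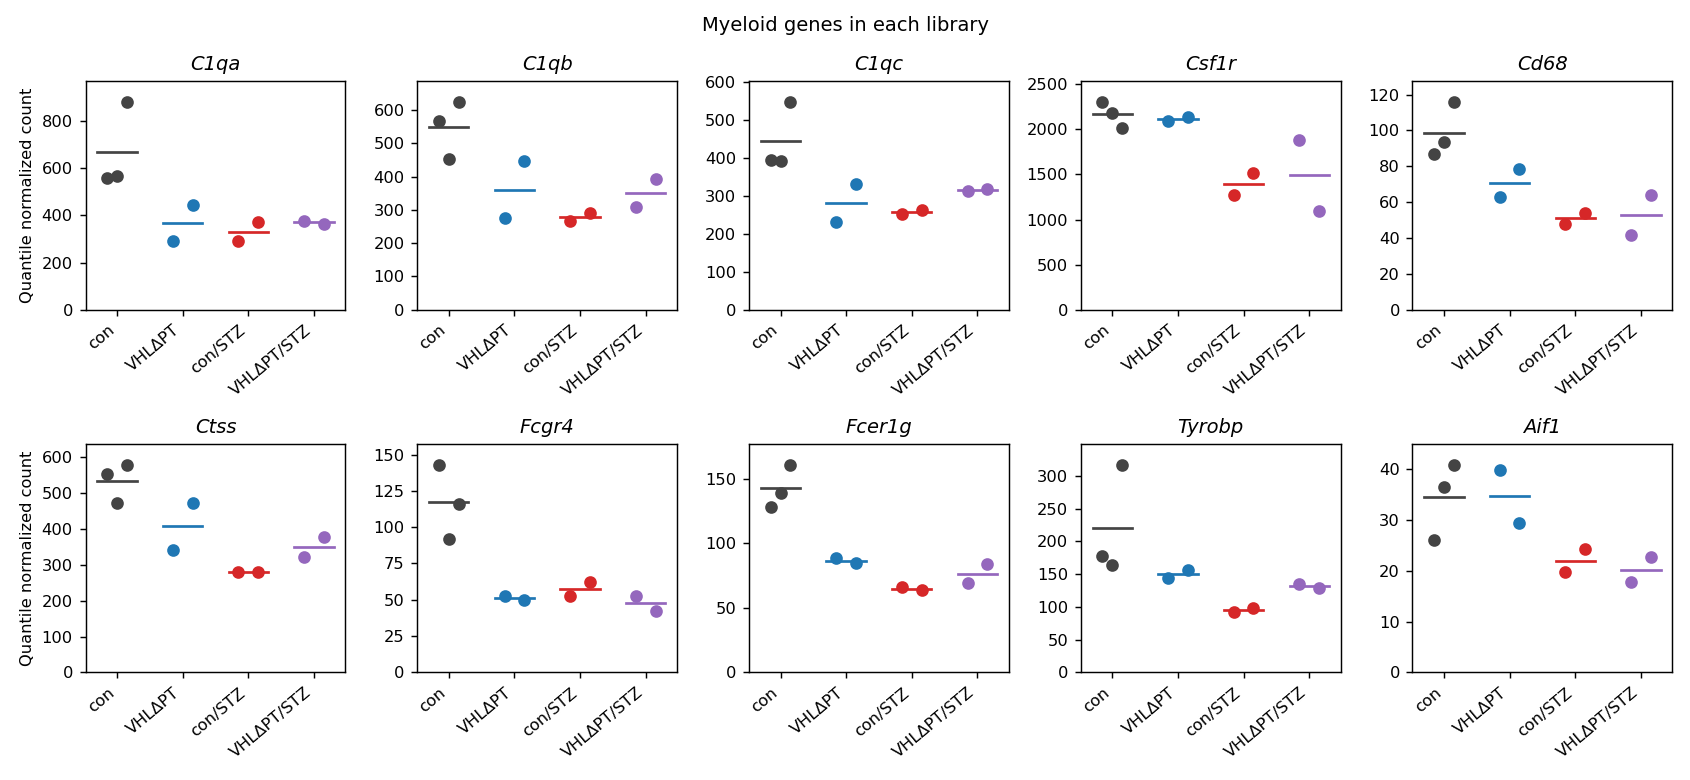
Quantile normalized counts of the 10 genes in each of the 9 libraries (points; vertical axes start at 0 and differ between genes), with the group mean as a line. The con/STZ libraries are below all con libraries for every gene, whereas VHLΔPT overlaps con for Csf1r, Ctss and Aif1.

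The comparison of con/STZ with con asked what diabetes did in kidneys with intact Vhl. In con/STZ, 9 of the 10 myeloid genes fell, against 14.1% of all genes tested that passed as lower. Tyrobp and Fcer1g changed most, and Csf1r least of those that passed. All 10 genes had con/STZ libraries below all con libraries, as did 30.0% of all genes, and 9 had an unadjusted p under 0.05 as lower, against 21.6%. The median log2 change of the 10 genes was -0.95, against -0.02 over all genes tested.

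Among the complement genes, C1qa fell by 0.99 on the log2 scale (SE 0.24, adjusted p = 0.0173), C1qb by 0.97 (SE 0.22, adjusted p = 0.0141) and C1qc by 0.77 (SE 0.19, adjusted p = 0.0202). The adaptor genes had changes of -1.13 for Tyrobp (SE 0.26, adjusted p = 0.0149) and -1.12 for Fcer1g (SE 0.18, adjusted p = 0.00425). These correspond to remaining levels of 0.457 and 0.460 of con. The macrophage growth factor receptor Csf1r fell by 0.64 (SE 0.20, adjusted p = 0.0411), and Cd68 by 0.93 (SE 0.25, adjusted p = 0.0236). Ctss and Fcgr4 passed at adjusted p = 0.00579 and 0.0156, at 0.526 and 0.501 of the con level. Aif1 had a log2 change of -0.61 (SE 0.30) and did not pass (adjusted p = 0.160).

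Ctss and Fcer1g passed in all 9 fits that left out 1 library each, with adjusted p from 0.00581 to 0.0448 and from 0.00413 to 0.0371, respectively. Csf1r passed in 2 of the 9 (0.00491 to 0.226) and Fcgr4 in 7. The count of 9 became 2 without the first or without the second con/STZ library and 7 without the third con library, and it was 1 (Csf1r, adjusted p = 0.0294) when the third con, the second con/STZ and the second VHLΔPT/STZ libraries were left out together. Over all genes tested, the number that passed in either direction went from 4082 to 1233, 1292, 3033 and 1026 in the same fits.

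The comparison of VHLΔPT with con asked what deletion of Vhl in tubule cells did without diabetes. Here 1 of the 10 genes fell, Fcgr4, against 0.658% of all genes that passed as lower. Fcgr4 had a log2 change of -1.15 (SE 0.23, adjusted p = 0.0458), and stayed at 0.451 of the con level. The next largest changes were -0.86 for C1qa (SE 0.24, adjusted p = 0.0745) and -0.71 for Fcer1g (SE 0.18, adjusted p = 0.0601), neither of which passed. At an unadjusted p under 0.05, 6 genes were lower, against 13.2% of all genes, and 7 had VHLΔPT libraries below all con libraries, against 24.8%. The median of the 10 genes was -0.56, against -0.02 over all genes. Csf1r and Aif1 were at -0.03 (SE 0.20, adjusted p = 0.933) and 0.01 (SE 0.30, adjusted p = 0.984). The Fcgr4 call passed in 3 of the 9 fits that left out 1 library, with adjusted p from 0.0368 to 0.25. It was lost without the first or the third con library and without any 1 of the VHLΔPT or con/STZ libraries.

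In VHLΔPT/STZ against con, which carries deletion and diabetes together, 1 gene again passed, against 0.464% of all genes that passed as lower. Fcgr4 fell by 1.26 on the log2 scale (SE 0.23, adjusted p = 0.0463) and stayed at 0.416 of con. Cd68 was at -0.91 (SE 0.25, adjusted p = 0.0793) and Fcer1g at -0.89 (SE 0.18, adjusted p = 0.0507), just outside the threshold. All 10 genes had an unadjusted p under 0.05 as lower (12.2% of all genes), and for all 10 both libraries lay below all con libraries (20.4%). The median was -0.70, against -0.01 over all genes. The count was 0 to 2 in the fits that left out 1 library, with 2 without the first VHLΔPT/STZ library and 0 without any other. The 3 comparisons share the con libraries, so a high con library moves all of them at once.

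**Figure D2:**
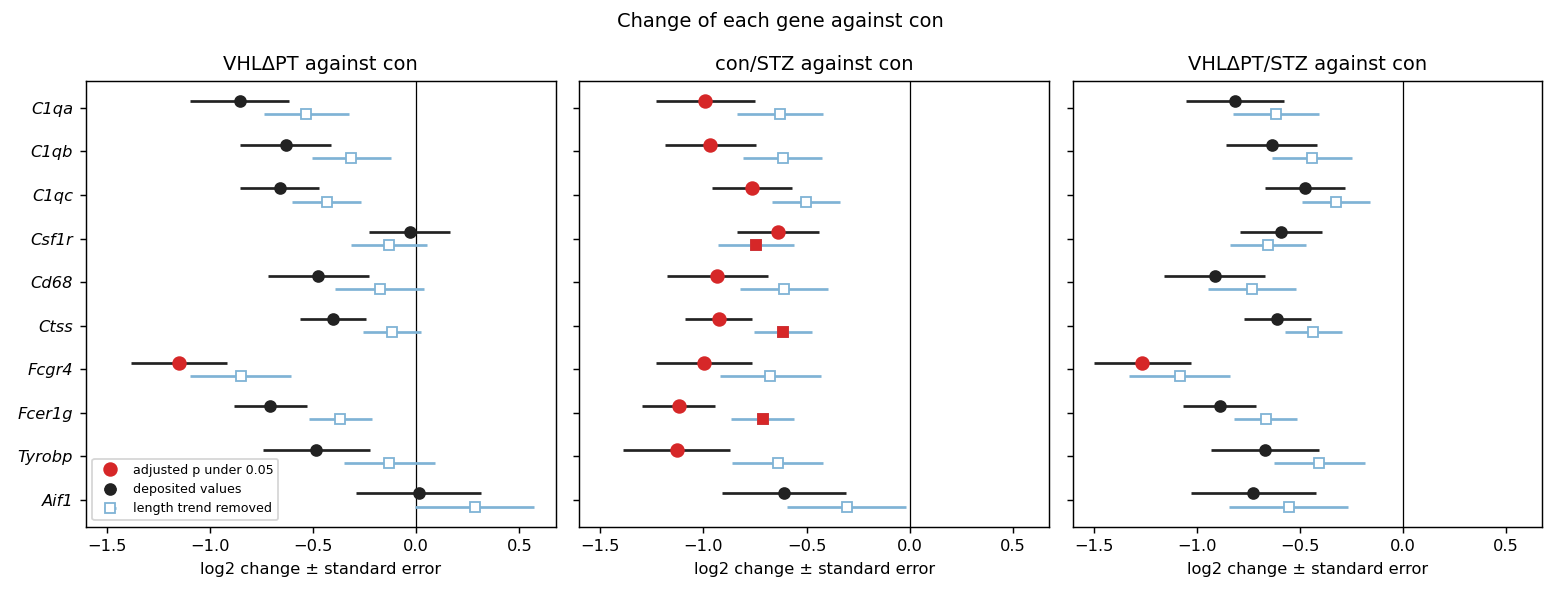
Log2 change (horizontal axis, with its standard error) of the 10 genes in VHLΔPT, con/STZ and VHLΔPT/STZ against con, from the deposited values (circles) and after the gene length trend was removed (squares); red marks an adjusted p under 0.05. With the deposited values 1, 9 and 1 genes passed, and with the length trend removed 3 genes passed, all in con/STZ.

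Within the diabetic mice, VHLΔPT/STZ against con/STZ had 0 of the 10 genes passing with limma (0.00693% of all genes passed as higher). At an unadjusted p under 0.05 the count was also 0, against 3.09% of all genes as higher and 3.54% as lower, and the lowest adjusted p was 0.765. Tyrobp was 0.46 higher on the log2 scale (SE 0.29, adjusted p = 0.782) and C1qb 0.33 higher (SE 0.24, adjusted p = 0.796). For 5 genes, C1qb, C1qc, Ctss, Fcer1g and Tyrobp, both VHLΔPT/STZ libraries were above both of con/STZ, as were those of 18.7% of all genes. Fcgr4 had a difference of -0.27 (SE 0.26). With standard errors of 0.18 to 0.33, differences of this size could not be separated from 0.

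Within the Vhl-deleted mice, VHLΔPT/STZ against VHLΔPT also had 0 genes passing with limma (0.00% of all genes passed as lower), and Csf1r was the 1 gene with an unadjusted p under 0.05 as lower (5.88% of all genes). Csf1r had a log2 difference of -0.56 (SE 0.22, unadjusted p = 0.0301, adjusted p = 0.413), from 2095 and 2138 to 1883 and 1095. Without the first VHLΔPT/STZ library, the one at 1883, the difference was -0.95 and passed (adjusted p = 0.0240). Csf1r, Fcer1g, Tyrobp and Aif1 had both STZ libraries below both VHLΔPT libraries, as did 23.1% of all genes. Fcer1g and Tyrobp differed by -0.18 each, and Aif1 by -0.74 (SE 0.33, adjusted p = 0.460).

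The interaction asks whether the STZ difference differed between Vhl-deleted and intact kidneys. Its estimate was positive for 9 of the 10 genes (48.2% of all genes were below 0), and 0 passed with limma (0.305% of all genes passed as positive). A positive value means that the STZ difference was less negative, or more positive, with Vhl deleted. At an unadjusted p under 0.05, 7 were positive (12.8% of all genes), and the lowest adjusted p was 0.0784, for Fcer1g (0.94, SE 0.26). C1qa had the largest estimate, 1.03 (SE 0.35, adjusted p = 0.114), and Csf1r and Aif1 were near 0, at 0.08 (SE 0.29) and -0.13 (SE 0.45). The median was 0.91, against 0.03 over all genes. Because con enters this contrast, the larger con values of the third con library enter it too.

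Gene length moved with these results. In each library, the deviation of a gene from its mean was related to its exon length, with r across genes, which are not independent replicates, from -0.455 to -0.19 in con, 0.212 and 0.188 in VHLΔPT, 0.257 and 0.269 in con/STZ, and 0.184 and -0.0572 in VHLΔPT/STZ, so short genes as a whole were higher in con. The 10 myeloid genes are short, with a median exon length of 1256.5 bases against 4307 for the genes tested, and 9 of them belong to the 2884 shortest genes (243 to 2341 bases). Csf1r has 5774 exon bases. The median change of those 2884 genes was -0.31 in VHLΔPT, -0.35 in con/STZ, -0.21 in VHLΔPT/STZ and 0.45 in the interaction.

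With the length trend of each library removed, 3 of the 10 genes still passed as lower in con/STZ, against 10.8% of all genes. They were Fcer1g (-0.71, SE 0.15, adjusted p = 0.0172), Ctss (-0.61, SE 0.14, adjusted p = 0.0203) and Csf1r (-0.74, SE 0.18, adjusted p = 0.0263), and the change of Csf1r was larger than with the deposited values. The 3 C1q genes were at -0.63, -0.62 and -0.50 with adjusted p of 0.0643, 0.0553 and 0.0638, and the median of the 10 genes was -0.62. At an unadjusted p under 0.05, 9 genes were lower, against 19.4% of all genes. In VHLΔPT against con and in VHLΔPT/STZ against con 0 passed with limma after this removal (0.00% of all genes as lower in each), 4 and 7 were lower at an unadjusted p under 0.05 (10.0% and 11.4% of all genes), and Fcgr4 was at -0.85 (adjusted p = 0.145) and -1.08 (adjusted p = 0.0910). In the interaction 0 passed (0.00693% of all genes as positive) and the median went from 0.91 to 0.39.

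**Figure D3:**
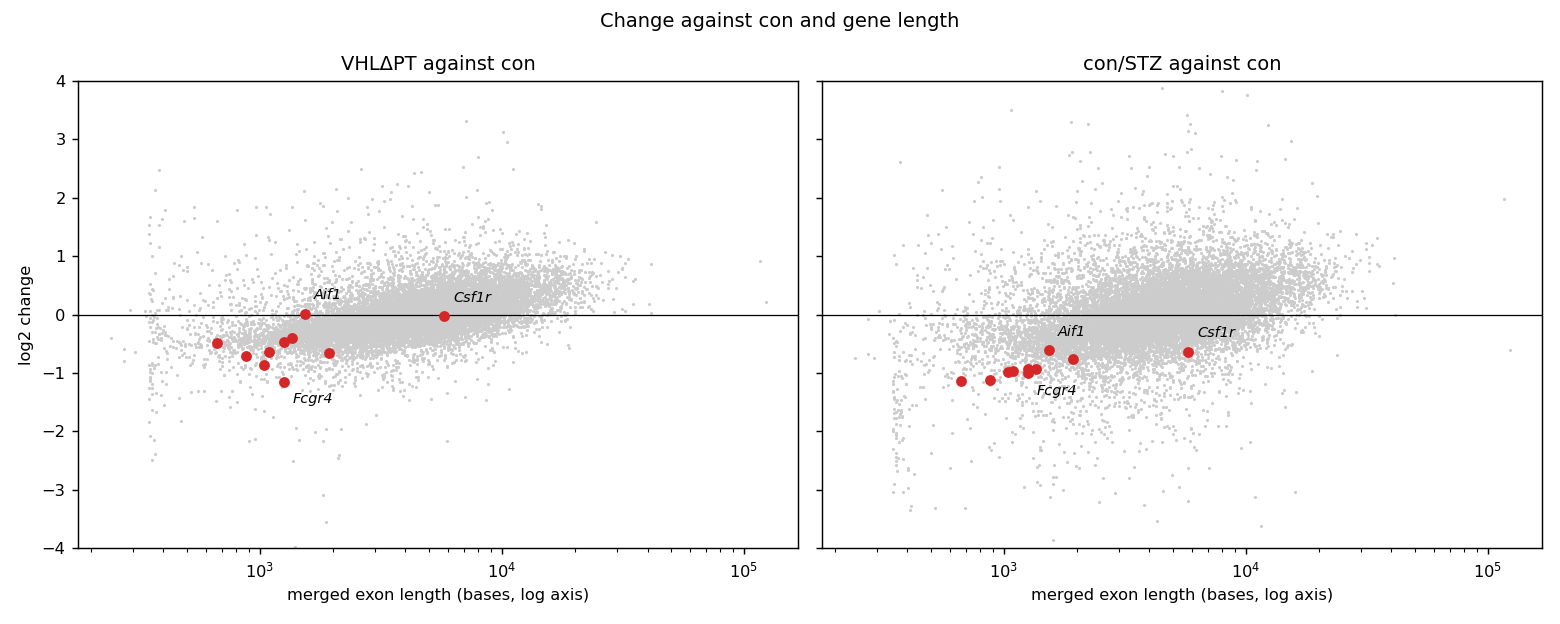
Log2 change against con (vertical axis) and merged exon length (horizontal log axis) of the genes tested, in VHLΔPT and in con/STZ; grey points are all genes and red points the 10 myeloid genes. Short genes lie lower in both panels, 9 of the 10 myeloid genes are at the short end, and Csf1r is longer and changed by -0.03 in VHLΔPT and -0.64 in con/STZ. In con/STZ, 12 genes beyond a log2 change of 4 in either direction are not drawn.

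The 10 genes had positive correlations with each other over the 9 libraries. The 45 pairwise correlations of their log2 values ranged from 0.39 to 0.97 with a median of 0.80, which includes the differences between groups and the length relation that most of them share. Fcer1g (r = 0.95), Ctss (0.94) and Cd68 (0.93) followed the mean of the other genes most closely, and Csf1r (0.60), Aif1 (0.64) and Fcgr4 (0.78) least. The ratio of C1qa to C1qb within a library stayed between 0.93 and 1.41 (coefficient of variation 14.2%), and that of C1qc to C1qb between 0.69 and 1.00 (11.3%). These neighbouring genes encode chains of 1 protein complex. Fcer1g to Tyrobp, the 2 adaptor genes, had a coefficient of variation of 17.4%. Ratios to Csf1r were looser, with 31.4% for C1qb (0.13 to 0.36) and 35.6% for Tyrobp. The lowest and the highest C1qb ratio were those of the first VHLΔPT and the second VHLΔPT/STZ library. C1qa and C1qb are close in exon length (1040 and 1088 bases), whereas Csf1r has 5774 and Tyrobp 667. The length relation of each library thus enters the ratios to Csf1r, and its part in their spread was not tested.

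Among 11995 other genes with a mean of at least 50, the 8 that followed the mean of the 10 most closely over the 9 libraries were Babam1 (r = 0.99), Bok, Pih1d1, Cnpy2, Ppp1r35, Cby1, Sumf2 and Mrpl17 (r = 0.98 each). Bok belongs to the BCL2 family and Mrpl17 encodes a protein of the mitochondrial ribosome, and none of the 8 is a marker of myeloid cells. Of these genes, 6 have exons of at most 2406 bases. Like most of the 10, Bok fell in con/STZ (892.8, 729 and 990.1 in con to 381 and 456, log2 change -1.05, adjusted p = 0.00335).

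The ligands and transcription factors that act on these cells were measured too. For the counts in this and the following lists, 14.1% of all genes tested passed as lower in con/STZ, and 10.8% with the length trend removed. Of the 14437 genes tested, 4082 passed in con/STZ in either direction, 2042 of them as lower. Rises were thus about as common as falls over all genes. Of 11 tested genes for Csf1r ligands, related receptors and myeloid transcription factors, 5 fell in con/STZ, 0 rose and the median change was -0.57. Il34, a tubule-derived ligand of Csf1r, had the largest change of them. Its values were 1667, 1323 and 1020.2 in con, 1223 and 1027 in VHLΔPT, 307 and 206 in con/STZ, and 924 and 215 in VHLΔPT/STZ. Both con/STZ libraries and the second VHLΔPT/STZ library were low, and the other VHLΔPT/STZ library lay near VHLΔPT. The log2 change was -2.38 in con/STZ (SE 0.51, adjusted p = 0.0114) and -1.55 in VHLΔPT/STZ (adjusted p = 0.116). The other ligand, Csf1, had a change of -0.29 in con/STZ (adjusted p = 0.280).

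Spi1, which encodes PU.1, was 65.1, 69.6 and 73.3 in con, 55.2 and 61.8 in VHLΔPT, 30.2 and 31.1 in con/STZ, and 46.3 and 58.0 in VHLΔPT/STZ. It was lowest in con/STZ without overlap (log2 change -1.15, SE 0.20, adjusted p = 0.00584). Irf5 (-1.37, adjusted p = 0.00589), Csf2rb (-0.92, adjusted p = 0.0467) and Irf8 (-0.57, adjusted p = 0.0270) also fell, and all 5 genes passed with the length trend removed.

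Of 4 tested genes for other Fc receptors, 3 fell in con/STZ. They were Fcgrt (4825, 5747 and 5595 in con, 2399.7 and 3024 in con/STZ, adjusted p = 0.00261), the neonatal Fc receptor that tubule and endothelial cells also make, Fcgr3 (-0.86, adjusted p = 0.0342) and the inhibitory receptor Fcgr2b (-0.74, adjusted p = 0.0135). With the length trend removed 2 of the 4 passed, and Fcgr3 was at -0.57 (adjusted p = 0.181). Of 13 genes for ITAM adaptors and the kinases that act on them, 3 fell, among them the kinases Btk (-1.50, adjusted p = 0.0308) and Fgr (-1.29, adjusted p = 0.0388), whereas Syk was at -0.47 (adjusted p = 0.176). With the length trend removed 1 of the 13 passed, and Btk and Fgr did not (adjusted p = 0.0544 and 0.0567). Of 6 genes for the phagocyte oxidase and lysozyme, 3 fell, among them Ncf4 (-1.24, adjusted p = 0.0213) and Cyba (-0.58, adjusted p = 0.00505). Only 1 of the 6 passed with the length trend removed, and Ncf4 and Cyba did not (-0.98 and -0.22, adjusted p = 0.0668 and 0.113). Of 12 cathepsins and their inhibitors 1 fell, Ctsh (-0.50, adjusted p = 0.00958), against 14.1% of all genes tested, and the median was -0.10.

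Genes for macrophage surface receptors were mixed. Of 16 tested, Itgax fell (-1.63, adjusted p = 0.0138) and Siglec1 rose (1.35, adjusted p = 0.0351), and the median was -0.38. Siglec1 was 12.1, 10.7 and 22.7 in con and 39.7 and 36.8 in con/STZ, the opposite direction to the 10 genes, and did not pass with the length trend removed (1.17, adjusted p = 0.0826). The F4/80 gene Adgre1, a defining macrophage marker chosen here after its values were seen, was 97.9, 105 and 135 in con and 67.7 and 96.2 in con/STZ (log2 change -0.46, adjusted p = 0.139). Of the 16 genes, 11 had a change below 0. Mrc1 and Cd163, also chosen after their values were seen, were not among those 11, at 0.05 (adjusted p = 0.838) and 0.00 (adjusted p = 0.999). Of 16 other complement genes, 2 rose, among them Cfi (0.74, adjusted p = 0.0483), and Cd55 fell (-1.25, adjusted p = 0.00677). Those 2 rises are near the share of all genes that passed as higher. C1ra and C1s1, whose products bind C1q, were at -0.21 (adjusted p = 0.458) and -0.04 (adjusted p = 0.872). The tests of single genes do not compare these lists with each other.

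Of 12 genes for cytokines, chemokines and their receptors, Spp1 rose in con/STZ (1.85, adjusted p = 0.0369), and 5 fell, among them Ccl5 (-2.44), Il1b (-1.79) and Ccr2 (-1.05). Ccr2, the receptor that guides monocytes into tissue, was 107, 104 and 86.9 in con, 167 and 161 in VHLΔPT, 58.7 and 37.9 in con/STZ, and 82.9 and 70.6 in VHLΔPT/STZ. It was highest in VHLΔPT and lowest in con/STZ, and the VHLΔPT value did not pass (0.73, adjusted p = 0.0873).

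**Figure D4:**
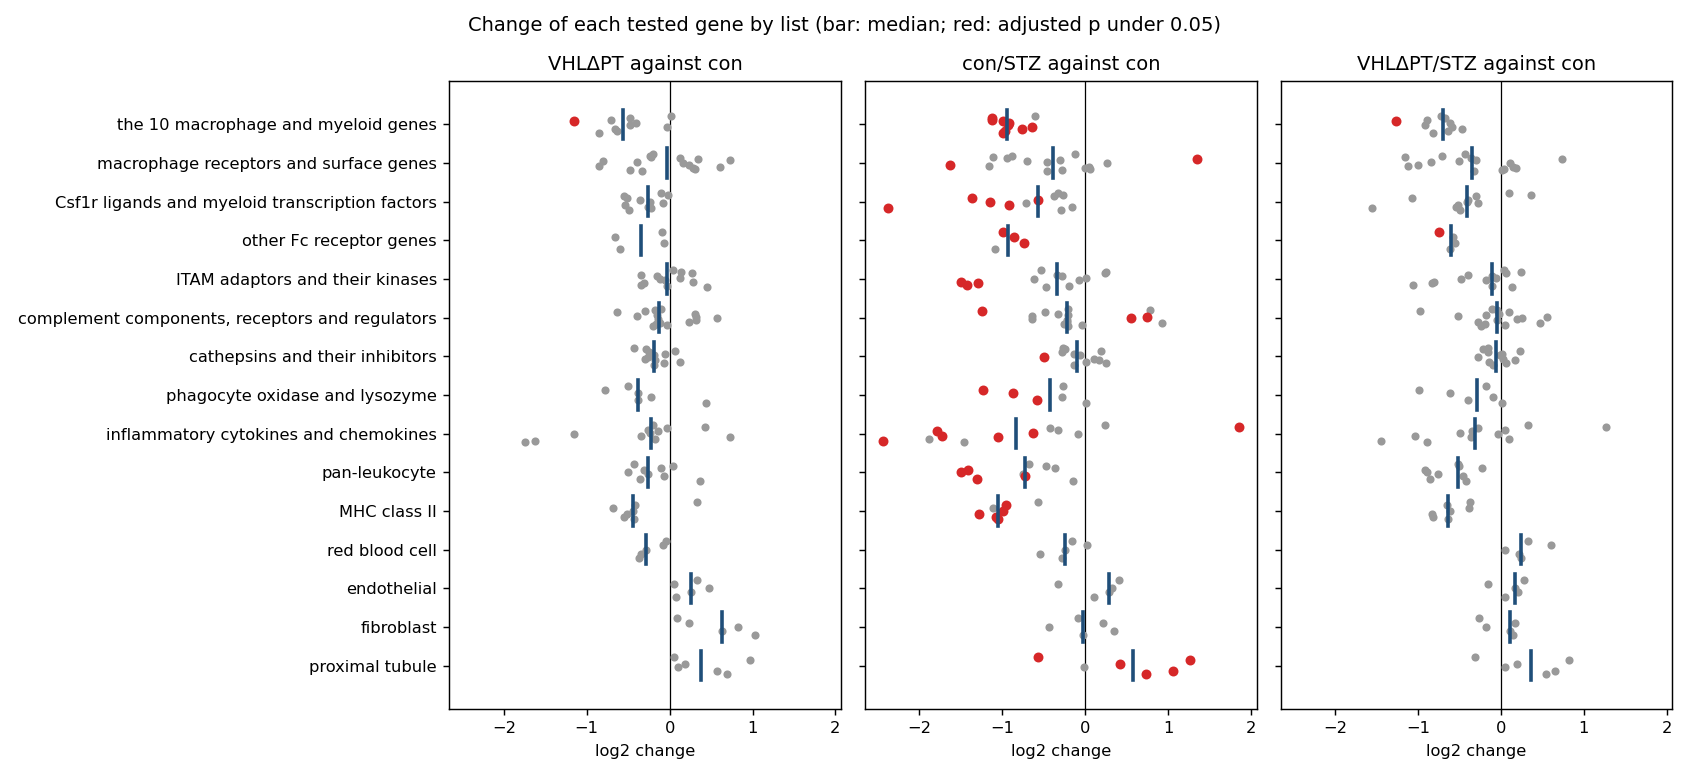
Log2 change against con of each tested gene (points, red at an adjusted p under 0.05) in 15 gene lists, with the median of each list as a bar, in VHLΔPT, con/STZ and VHLΔPT/STZ. The 10 myeloid genes have medians of -0.56, -0.95 and -0.70, and in con/STZ the medians of MHC class II, endothelial and fibroblast genes are -1.05, 0.29 and -0.03.

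Some markers of other blood cells also fell in con/STZ, where 14.1% of all genes tested passed as lower. Of 9 genes shared by all leukocytes, 4 fell in con/STZ, Cd52 (-1.49), Rac2 (-1.42), Coro1a (-1.31) and Laptm5 (-0.72), and their summed level was 2338 to 2500.4 in con, 2257 to 2285 in VHLΔPT, 1430.5 to 1722 in con/STZ and 1594 to 1841 in VHLΔPT/STZ. With the length trend removed 6 of the 9 passed. The long gene Ptprc, which encodes CD45 and has 18313 exon bases, was at -0.15 (adjusted p = 0.666) and at -0.70 (adjusted p = 0.0377) after that removal. Of 7 MHC class II genes, which macrophages, dendritic cells and B cells use, 5 fell, and their sum went from 12749 to 16616 in con to 5231 to 8730 in con/STZ.

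Most markers of lymphoid cells and granulocytes had low values. The summed T cell markers were 242 to 304 in con and 106 to 142 in con/STZ, and 1 of 4 tested genes, Trac, fell (-1.28, adjusted p = 0.0193). Of 3 B cell genes Cd79a (mean 14.9) fell (-2.17, adjusted p = 0.00739). Ighm (mean 276) and Cd79b (mean 15.7) did not pass, at -1.83 (adjusted p = 0.0554) and -0.42 (adjusted p = 0.320). The 1 tested natural killer cell gene, Nkg7 (mean 11.0), fell (-2.20, adjusted p = 0.0131). In con/STZ, Cd79a was 6.11 and 3.00 and Nkg7 was 2.00 and 6.00, so both calls rest on very low values. Of 5 dendritic cell genes Xcr1 fell (-1.46, adjusted p = 0.0411), and the median was -0.80. Cd209a and Flt3 were at -1.82 and -0.80 (adjusted p = 0.0739 and 0.101), while Zbtb46 and Clec9a were at 0.20 and 0.04 (adjusted p = 0.317 and 0.922). Of 2 tested platelet genes Itga2b (mean 172) fell (-0.62), while Pf4 (mean 16.5) was at -0.52 (adjusted p = 0.394). Trac and Xcr1 did not pass with the length trend removed (adjusted p = 0.0876 and 0.0501). Of 5 mast cell genes only Kit was tested, with a mean of 274 against 3.26 for Cpa3, so it may not read mast cells here. Kit was at 0.30 (adjusted p = 0.171). Neutrophil markers summed to 31.6 to 384 in con and 29.2 to 34.1 in con/STZ, and 0 of 3 tested passed. S100a8 was 127, 54.6 and 7.11 in con. The third con library, highest for several of the 10 genes, had the lowest S100a8 value in con. Red blood cell genes summed to 9303 to 22063 in con and 10432 to 14862 in con/STZ with 0 of 5 passing, and those of endothelium to 5681 to 6235 and 6299 to 6737. Tubule markers also differed in con/STZ, where about as many of all genes tested passed as higher as the 14.1% that passed as lower. Of 6 proximal tubule genes 4 rose and 1 fell (median 0.58), with sums of 215115 to 243023 in con and 244189 to 284740 in con/STZ. With the length trend removed 3 rose and 1 fell, and the median was 0.39. Of 7 genes of other cortical nephron cells 3 rose and 0 fell (median 1.03), with sums of 86702 to 101609 in con and 167607 to 180204 in con/STZ. After that removal 4 rose and 0 fell, and the median was 0.68. The 4 inner medulla and papilla genes summed to 1583 to 2527 in con, 3433 to 3524 in con/STZ, and 2389.9 and 5571 in VHLΔPT/STZ. Of them, Aqp4 rose in con/STZ (0.81, adjusted p = 0.0408), and 0 of the 4 passed with the length trend removed. The part of the leukocyte, tubule and medulla markers in the changes of the 10 genes was not tested.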

How the data were processed

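Groups came from the sample titles. Per the labels and the study's methods, reads from stranded poly(A) libraries passed through FastQC 0.11 and Trim Galore 0.4, STAR 2.5.2b on GRCm38, featureCounts 1.5.2 and StringTie 1.3.3b, with MultiQC 1.4. The authors deposited quantile normalized counts, a signal that keeps no depth; the tool that normalized them is not given in the sources used here. DESeq2 1.26.0 (R 3.6.3), which the study used, needs raw counts and was not fitted.

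The log2(value + 1) matrix was analysed in R 4.3.3 with limma 3.58.1, using a mean for each of the 4 groups, a variance trend and two-sided moderated tests (5 residual df) in 6 comparisons, with Benjamini-Hochberg adjustment over 14437 genes (mean of 10 or more). Exon lengths (GENCODE M21) were found for 99.88% of them. To remove the length trend, a loess curve (span 0.5) of deviations against log10 length was subtracted in each library. The fit was also run on simulated data with independent noise for each gene and no length trend. That run therefore does not bear on the error rate of the calls given here. RNA pools hide the spread between mice, so p-values measure the spread between pools.

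The 10 genes and 23 further lists were chosen with earlier results of these data known. Each list names up to 5 genes that passed in con/STZ, ranked by change, then those passing in VHLΔPT, then those of highest mean. Csf1, Syk, Adgre1, Mrc1, Cd163, C1ra, C1s1, Ptprc, S100a8, Zbtb46, Clec9a and Kit were chosen after their values were seen. Some genes that this rule would name are not reported here. The names of 24 genes were restored from their identifiers. Settings varied were the pseudocount (10), the filter (none, or 50), median ratio scaling, the variance trend, the threshold (1.5-fold, or unadjusted p), the samples fitted, a replicate block, the length trend and the libraries. Figures used matplotlib 3.10.9.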

Additional observations from a re-analysis of the deposited data

How the results depend on the processing

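The count of myeloid genes that passed (9 in con/STZ, 1 in VHLΔPT and 1 in VHLΔPT/STZ against con, and 0 in the other 3 comparisons) changed as follows. In VHLΔPT/STZ it was 2 with a pseudocount of 10, with a mean of at least 50 and with median ratio scaling. In VHLΔPT and VHLΔPT/STZ it was 0 without a filter, without the trend, with only the groups compared, with the length trend removed and without the third con, second con/STZ and second VHLΔPT/STZ libraries, and at an unadjusted p it was 6 and 10. At an unadjusted p it was 1 in VHLΔPT/STZ against VHLΔPT and 7 in the interaction. In con/STZ it was 3 with the length trend removed and 1 without those 3 libraries, and 8 without the variance trend. Leaving out each library gave 2 to 9 in con/STZ, 0 to 1 in VHLΔPT, 0 to 2 in VHLΔPT/STZ and 0 to 1 in VHLΔPT/STZ against VHLΔPT. With the length trend removed as well, an alternative chosen after seeing the data, the ranges were 0 to 5, 0 to 0, 0 to 1 and 0 to 1. Where a group was left with 1 library, that library was assumed to vary like the others. Over all genes, the con/STZ count of 4082 was 1233 to 4322 in the fits without 1 library.

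With the replicate block the counts were 0 in VHLΔPT, 8 in con/STZ and 0 in VHLΔPT/STZ, and with the block and the length trend removed together 0 in all 3. Nothing in the labels ties same-numbered libraries to a shared litter or day, so they were treated as sharing only a number. Of the 12 pairs, 4 correlated above 0.1 (-0.109 to 0.273). In groups of 2 libraries the deviations from the group mean mirror each other, so some pairs repeat the same value. That count therefore cannot decide whether the block is needed. The cause of the changes in the number of genes passing was not tested. No called change reversed its sign, and all 299 estimates in con/STZ against con and in VHLΔPT/STZ against con stayed negative. With 2 or 3 pooled libraries a group, values such as those of Aif1 (17.8 to 40.9) allow only large changes to be seen.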
